A study of Arabidopsis thaliana with 12 samples.

Results

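DME, FBL17, TCP15 and SPL are 4 Arabidopsis regulators with roles in reproductive development or in the cell cycle, and their transcripts were compared between a photosystem I antisense line and wild type. The set was every probe annotated to exactly 1 gene among DME (AT5G04560), FBL17 (AT3G54650), TCP15 (AT1G69690) and SPL (AT4G27330). That gave 4 probes of 692 with a single gene and of 3439 in the table, and all 4 were measured on all 12 arrays. The genes were picked because each was lower in psaf, so their differences between genotypes are described without a test. No probe with several genes listed any of the 4.

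The study set 6 arrays of wild type plants (WT, ecotype Columbia-0) beside 6 arrays of psaf, an antisense line in the same ecotype that lacks the photosystem I subunit PSI-F. Each array carries a number from 1 to 6 within its genotype, and total RNA was measured. The labels name neither the promoter of the antisense construct nor the tissue, age or growth conditions, and they do not say whether the arrays came from separate plants. The antisense target, PSAF, was on no probe with a single gene, so it was not used to check the genotype labels.

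DME encodes DEMETER, a DNA glycosylase that excises 5-methylcytosine and thereby switches on the maternal copies of imprinted genes in the central cell of the female gametophyte. SPL encodes SPOROCYTELESS, also called NOZZLE, which starts the formation of spore mother cells in anthers and ovules, and it is unrelated to the SBP-box genes that share its abbreviation. FBL17 is the F-box subunit of a ubiquitin ligase that marks inhibitors of cyclin-dependent kinases for degradation, which lets the generative cell of pollen divide. TCP15 is a class I TCP transcription factor that acts on cell proliferation and endoreduplication in leaves, stems and flowers.

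All values are intensities on the authors' linear scale. The sum over an array was 3563 to 3745, and 4.45% to 5.18% of probes were at 0. Every array had its nearest counterpart in the same genotype, array 1 with 2, array 3 with 4 and array 5 with 6. Over all tested probes the log2 readings of such a close pair differed with a robust SD of 0.118 to 0.156, against 0.218 to 0.431 for other arrays of a genotype and 0.451 to 0.615 between genotypes. Each pair therefore counted as 1 sample (n = 3 pair means per genotype), and any spread between them may be technical. The median log2 difference over the 3266 tested probes was -0.29. In limma with pairs averaged, 157 probes were higher (4.81%) and 1114 lower in psaf at an adjusted p under 0.05. After quantile normalisation these counts were 287 and 420, after median centring 429 and 329, and after cyclic loess 357 and 405.

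On the deposited scale, each of the 4 genes was at 48.9% to 58.9% of its WT level in psaf. For each of them, every psaf array read below every WT array. Such a separation downward occurred for 35% of the 3266 tested probes, and 34.1% were called lower in psaf by limma with pairs averaged. Because the genes were chosen for this direction, nothing is read from their own count of 4. A lower intensity in total RNA cannot tell fewer cells that carry a transcript from less transcript per cell.

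DME read 0.541, 0.592, 0.672, 0.690, 0.621 and 0.647 on WT arrays 1 to 6. On psaf arrays 1 to 6 the same probe read 0.332, 0.312, 0.328, 0.317, 0.276 and 0.275. The WT readings were lowest on arrays 1 and 2 and highest on arrays 3 and 4, and the psaf readings were lowest on arrays 5 and 6. The mean of pair means was 0.627 ± 0.0577 in WT and 0.307 ± 0.0270 in psaf (SD, n = 3). The log2 difference was -1.03 ± 0.13 (SE from limma), which put DME at 48.9% of WT. On the deposited scale DME had the widest gap of the 4 genes between genotypes, with the lowest WT reading 1.63 times the highest psaf reading; under cyclic loess this gap was 0.29 log2 for DME and 0.30 for FBL17. RefSeq lists 3 transcripts for DME and 1 for each of the other 3 genes, and which of them the probe detects was not determined.

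SPL read 0.725, 0.621, 0.720, 0.724, 0.678 and 0.677 on WT arrays 1 to 6. On psaf arrays 1 to 6 it read 0.473, 0.365, 0.443, 0.384, 0.414 and 0.372. WT array 2 and psaf array 1 came nearest to each other, with the lowest WT reading 1.31 times the highest psaf reading. The pair means were 0.690 ± 0.0276 in WT and 0.407 ± 0.0124 in psaf (SD, n = 3), a log2 difference of -0.76 ± 0.10 (SE). SPL was thus at 58.9% of WT, the smallest difference of the 4 genes. The small SD over pair means hides a larger scatter inside pairs, since psaf arrays 1 and 2 differed by 0.37 log2 while the 3 psaf pair means spanned 0.08.

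FBL17 was the dimmest of the 4 probes relative to all tested probes, with 18.1% of them at or below its mean log2 intensity. It read 0.349, 0.313, 0.373, 0.325, 0.322 and 0.366 on WT arrays 1 to 6. On psaf arrays 1 to 6 it read 0.186, 0.201, 0.164, 0.157, 0.165 and 0.167. The WT readings stayed within 1.19-fold of each other, and in psaf arrays 1 and 2 lay above the other 4. The means were 0.341 ± 0.00920 and 0.173 ± 0.0177 (SD, n = 3 pair means), a log2 difference of -0.98 ± 0.12 (SE). This F-box transcript was therefore at 50.7% of WT, and its lowest WT reading was 1.56 times its highest psaf reading. Adding an offset of 0.106 before the logarithm, the 5% quantile of all readings above 0, brought the log2 difference to -0.68.

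TCP15 read 0.657, 0.584, 0.784, 0.778, 0.651 and 0.574 on WT arrays 1 to 6. On psaf arrays 1 to 6 it read 0.415, 0.358, 0.335, 0.287, 0.349 and 0.338. WT arrays 3 and 4 stood above the other WT arrays, and psaf array 1 was the highest of its genotype and psaf array 4 the lowest. The means were 0.670 ± 0.0958 and 0.346 ± 0.0379 (SD, n = 3 pair means), a log2 difference of -0.95 ± 0.15 (SE). TCP15 was at 51.8% of WT and had the largest SE of the 4 genes. Its readings spread 1.37-fold within WT and 1.44-fold within psaf, and the lowest WT reading was still 1.38 times the highest psaf reading.

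**Figure D1:**
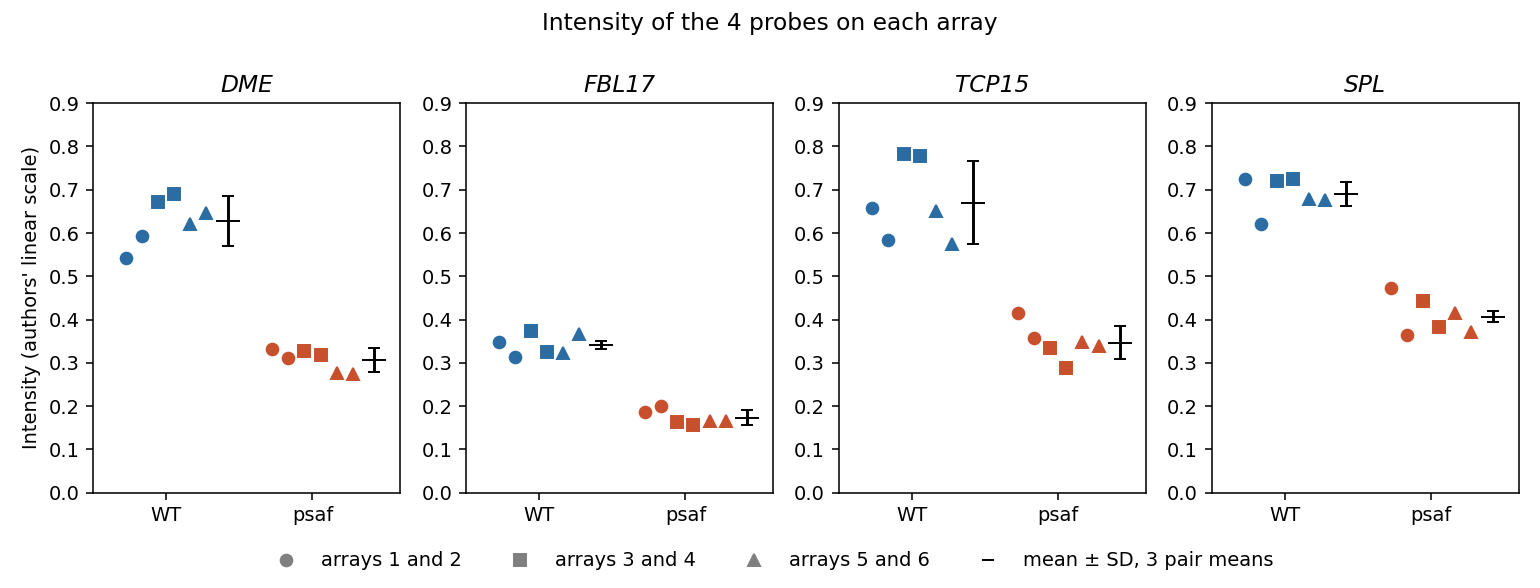
Intensity on the authors' linear scale (vertical axis) for the 4 probes on each of the 6 WT arrays (blue) and 6 psaf arrays (orange); marker shapes show the close pairs, and the black bar is the mean ± SD of 3 pair means. In every panel the psaf arrays lie below the WT arrays. As a ratio of the lowest WT to the highest psaf reading, the gap is widest for DME (1.63) and narrowest for SPL (1.31).

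The order of the differences on the deposited scale, from the largest, was DME, FBL17, TCP15 and SPL, and with the offset before log2 TCP15 (-0.77) came ahead of FBL17 (-0.68). DME, FBL17 and TCP15 lay within 0.08 log2 of each other, which is less than the SE of any of them. SPL lay 0.19 log2 above TCP15, its nearest neighbour in the order, with SEs of 0.10 and 0.15. The levels themselves were not ranked between genes, since probes differ in brightness for reasons other than transcript amount.

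Within a genotype the 4 genes varied by different amounts from pair to pair. In WT the mean of arrays 3 and 4 was the highest of the 3 pair means for each gene, as it was for 43.4% of tested probes. In psaf the highest pair mean was that of arrays 1 and 2 for FBL17, TCP15 and SPL and that of arrays 3 and 4 for DME. The WT pair means spanned 0.27 log2 for DME, 0.08 for FBL17, 0.35 for TCP15 and 0.11 for SPL, beside a median span of 0.38 over all tested probes. In psaf the spans were 0.23, 0.27, 0.31 and 0.08 in the same order, beside a median of 0.27. With the genotype means taken away, the correlation between genes over the 12 arrays ran from 0.13 for FBL17 with SPL to 0.60 for TCP15 with SPL. These points share arrays and close pairs, so the correlations are a description.

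The size of each difference depended on how the arrays were scaled, whereas the arrays of the genotypes stayed apart under the 3 other scalings tried. Relative to the median probe, the deposited log2 differences were -0.74 for DME, -0.68 for FBL17, -0.65 for TCP15 and -0.47 for SPL. Under cyclic loess, which removes trends with brightness between arrays, DME was at -0.63 ± 0.11, FBL17 at -0.57 ± 0.09, TCP15 at -0.55 ± 0.13 and SPL at -0.38 ± 0.09 (log2 difference ± SE). Every psaf array still read below every WT array for 4 of the 4 genes under cyclic loess, quantile normalisation and median centring. Over all tested probes this separation held for 15.7%, 17% and 13.7% under those scalings. The genes were chosen for being lower in psaf on these same arrays, so nothing is read from their count here either. SPL came closest to overlap, with 0.07 log2 left between its lowest WT and highest psaf array under cyclic loess.

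**Figure D2:**
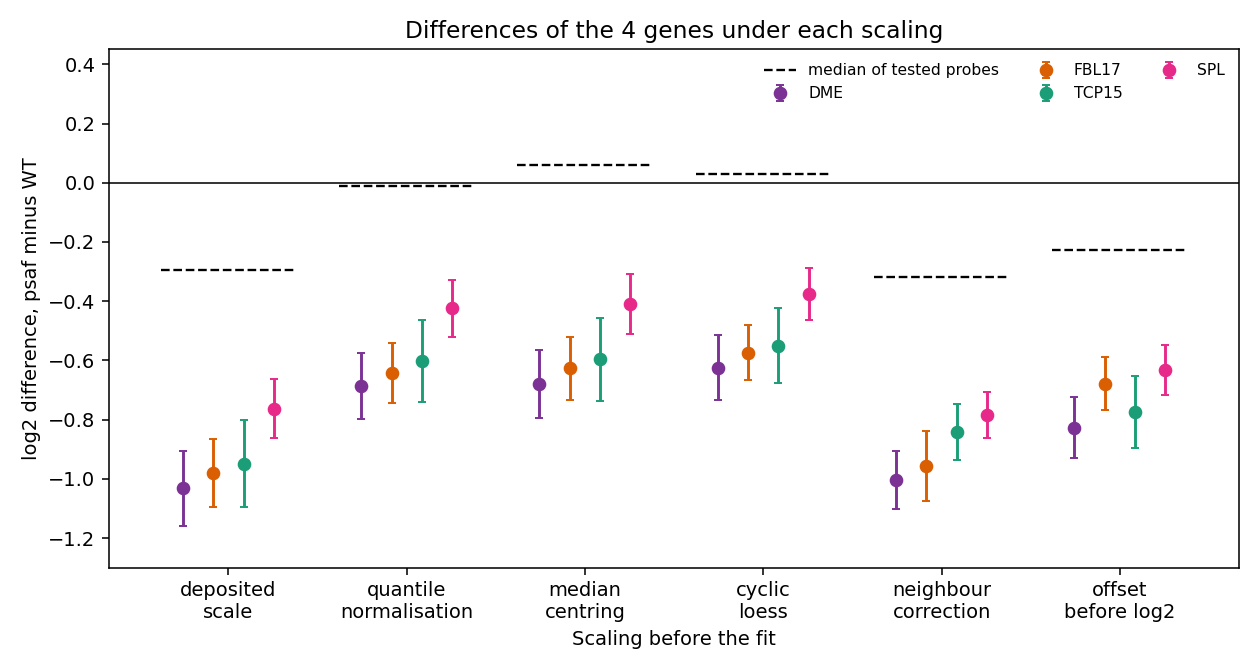
The log2 difference, psaf minus WT, of the 4 genes (points, with SE from limma over pair means) under 6 ways of treating the arrays; dashes mark the median of all tested probes under each. On the deposited scale the genes lie at -1.03 to -0.76 and the median probe at -0.29, and under cyclic loess the genes lie at -0.63 to -0.38 and the median probe at 0.03.

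Among all tested probes the 4 differences were in the lower part of the distribution without reaching its end. On the deposited scale 5.66% of tested probes had a lower log2 difference than DME, 7.16% than FBL17, 7.96% than TCP15 and 15.6% than SPL. Among the 649 tested probes with a single gene, DME held place 36 from the lowest, FBL17 place 46, TCP15 place 55 and SPL place 107. Under cyclic loess the shares of probes below them were 7.81%, 9.09%, 9.80% and 18.3%. When the tested probes were divided into 10 classes of brightness, the median log2 difference in the class of the gene was -0.32 for DME and TCP15, -0.38 for FBL17 and -0.40 for SPL. In the brightest class the median was 0.19, and in the other classes it lay between -0.40 and -0.21.

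**Figure D3:**
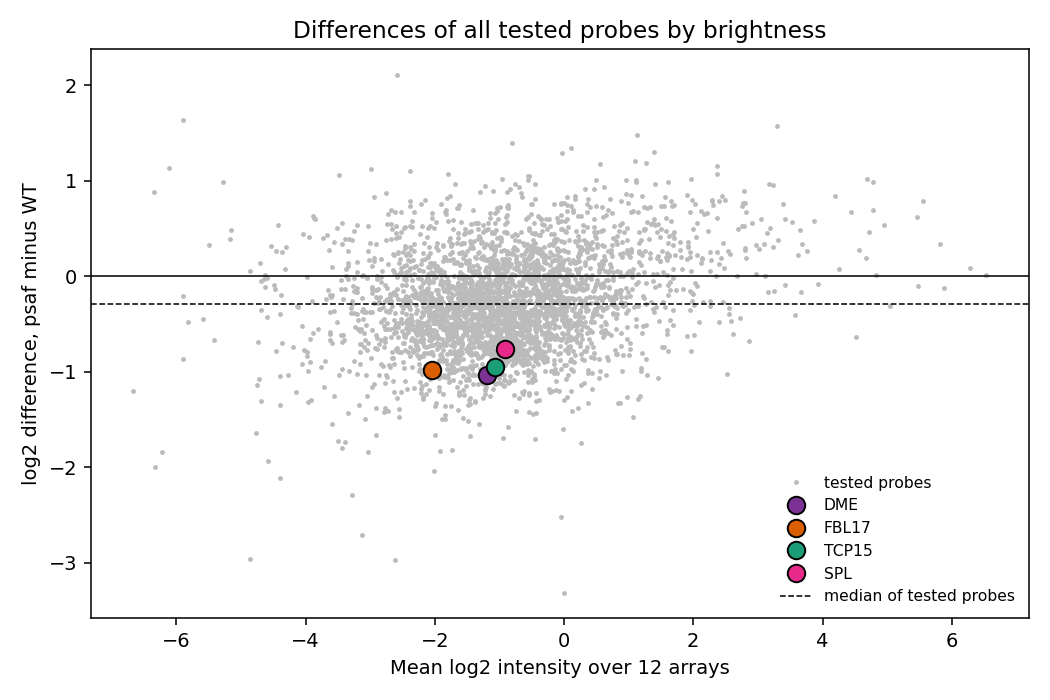
Each of the 3266 tested probes (grey) by its mean log2 intensity over 12 arrays and its log2 difference, psaf minus WT, on the deposited scale; the 4 genes are coloured and the dashed line is the median of all tested probes at -0.29. The 4 genes lie below that line at middle to low brightness, and other probes lie lower still.

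Neighbouring probe numbers were examined because readings on nearby probes may move together. The 4 nearest tested probe numbers to DME had log2 differences of -0.91 to 0.29, with a median of -0.41. Around FBL17 they lay between -0.46 and -0.06 (median -0.25), and around SPL between -0.39 and 0.38 (median -0.22). TCP15 had the lowest surroundings, from -1.04 to -0.12 with a median of -0.52. A correction that subtracts the shared deviation of these neighbours within each genotype left DME at -1.0, FBL17 at -0.96, TCP15 at -0.84 and SPL at -0.79. The correction is built from deviations within each genotype, so it was not a test of a shift between genotypes that neighbours share.

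**Figure D4:**
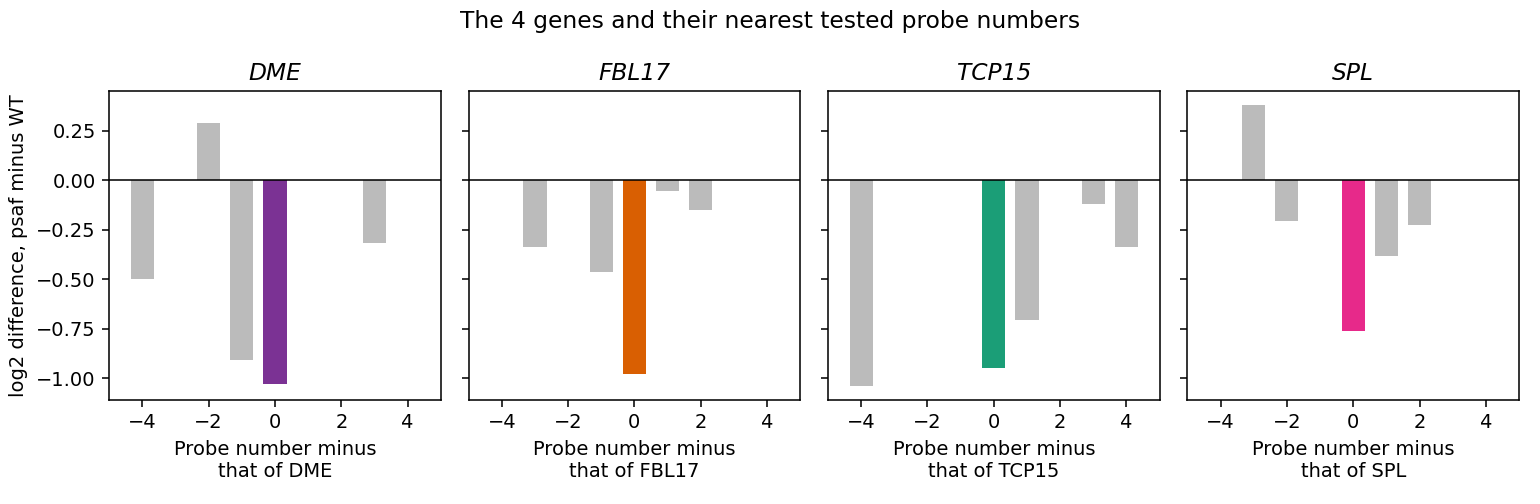
The log2 difference, psaf minus WT, of each gene (coloured bar at 0) and of its 4 nearest tested probe numbers (grey bars, placed by probe number minus that of the gene). DME, FBL17 and SPL lie below all 4 of their neighbours, with the nearest neighbour of DME at -0.91, and TCP15 has a neighbour at -1.04.

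The genes whose readings most resembled each of the 4 were taken by the Pearson correlation of log2 intensity over the 12 arrays, among 644 other single-gene probes measured on all arrays. For DME these were AT5G53930 (r = 0.98), AT1G76220 (0.98) and AT1G63610 (0.98). AT5G53930 was at 0.772 ± 0.128 in WT and 0.360 ± 0.0143 in psaf (SD, n = 3 pair means), 47.0% of WT and close to the 48.9% of DME. For FBL17 they were AT1G15410 (0.99), SWAP70 (AT2G30880, 0.98) and AT2G31920 (0.98). SWAP70 encodes a guanine nucleotide exchange factor and was at 0.509 ± 0.0245 and 0.265 ± 0.0434, 51.7% of WT. For TCP15 they were AT2G21720 (0.98), AT5G02830 (0.97) and AT5G41960 (0.97), of which AT2G21720 was at 51.5% of WT. For SPL they were AT5G15280 (0.98), AT2G37580 (0.97) and AT3G57440 (0.97), at 77.8%, 36.7% and 76.1% of WT.

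Correlations of this size were common. The correlation exceeded 0.9 for 20.2% of the 644 probes with DME, 18.8% with FBL17, 17.5% with TCP15 and 14.4% with SPL. With genotype means taken away, the correlations with the 3 genes, in the order given, were 0.73, 0.70 and 0.39 for DME and 0.85, 0.75 and 0.73 for FBL17. They were 0.75, 0.83 and 0.70 for TCP15 and 0.70, 0.60 and 0.80 for SPL. The arrays are shared and close pairs are not independent, so these values carry no p. The genes were picked for high correlation on these same arrays. No share over the 644 probes is given with genotype means taken away, so whether these values are unusual was not tested.

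Few genes of the surrounding pathways could be found by symbol among the single-gene probes, many of which carry only a locus number. Lists matched by symbol or synonym held 190 genes for the cell cycle, 44 for F-box proteins and 22 for the TCP family. They held 82 for DNA methylation and demethylation, and 85 for sporogenesis, anther, ovule and meiosis. These are counts of matching names, so a list can lack genes of its pathway and hold genes from outside it. Apart from DME, FBL17, TCP15 and SPL themselves, 0 genes matched in the last 4 lists were on such a probe. The cell cycle list matched 1 probe, CKS (AT1G53000), whose RefSeq synonym is CMP-KDO synthetase, an enzyme of cell wall sugar metabolism, so it is no cell cycle gene. This dim probe was at 0.0748 ± 0.0132 in WT and 0.0386 ± 0.0176 in psaf (SD, n = 3 pair means), and its arrays overlapped between genotypes. Whether cyclins, TOPLESS or the imprinted targets of DEMETER differed was therefore not analysed here.

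Other genes with a single-gene probe, taken here as developmental and nuclear regulators, were picked by name once the annotation had been seen. They are given as values only, and not every one of them need be a regulator. All 9 had log2 differences below 0 on the deposited scale, as did 72% of tested probes. Their median was -0.44, beside -0.29 for all tested probes. Under cyclic loess, quantile normalisation and median centring 6 of 9 lay below 0. The median of all tested probes was then 0.03, -0.01 and 0.06, so many other probes also lay below 0. Lower than SPL's -0.76 were IYO (AT4G38440, MINIYO, which promotes the onset of differentiation) at -0.90 and the AGAMOUS-like gene AGL54 (AT5G27090) at -0.80. SAP (AT5G35770, STERILE APETALA, a regulator of flower and ovule development) was at 0.367 ± 0.0929 in WT and 0.246 ± 0.0464 in psaf (SD, n = 3 pair means), and its arrays overlapped between genotypes. LAS (AT1G55580), a GRAS-domain gene of axillary meristem formation, was at 0.967 ± 0.151 and 0.736 ± 0.0695, and its log2 difference of -0.39 came to -0.067 under cyclic loess. APTX (AT5G01310), an aprataxin-like gene, was at 1.27 ± 0.0456 and 0.880 ± 0.0256, and AGL103 (AT3G18650) was at 0.779 ± 0.0964 and 0.571 ± 0.0550. The log2 difference of AGL103 was -0.44 on the deposited scale and -0.085 under cyclic loess, and that of APTX was -0.53 and -0.27. The chromatin remodelling gene chr31 (AT1G05490), AGL26 (AT5G26880) and TRM31 (AT5G58630) were at -0.10, -0.24 and -0.32 log2 on the deposited scale, and these turned above 0 under the 3 other scalings. Every psaf array read below every WT array for 5 of the 9 genes and, as given above, for 35% of all tested probes.

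**Figure D5:**
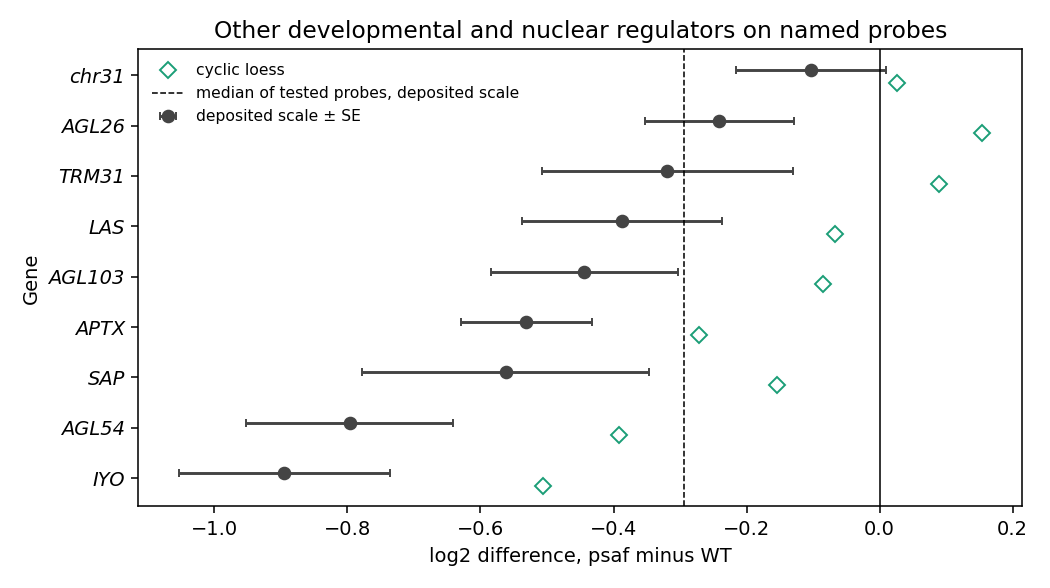
The log2 difference, psaf minus WT, of 9 other genes picked by name as regulators. Filled points with SE from limma over pair means are on the deposited scale, and open diamonds are under cyclic loess. The dashed line is the median of all tested probes at -0.29. The deposited values run from -0.90 for IYO to -0.10 for chr31, and 3 of the 9 lie above 0 under cyclic loess.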

How the data were processed

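The deposited table holds linear intensity values of 3439 probes, which the authors had already brought to a common scale, judged from the nearly equal array sums; for scanner, background correction and normalisation nothing is stated. Readings of 0 counted as missing, and testing required at least 4 arrays above 0 in each genotype, which left 3266 probes. Log2 intensities were averaged within close pairs of arrays and compared between genotypes, with no covariate, by limma 3.58.1 under R 4.3.3 (two-sided moderated test, Benjamini-Hochberg over all tested probes, threshold 0.05). Averaging was the main setting because 12 single arrays would count close pairs as independent. The fit was tested on simulated data with rises and falls equally likely, so a shift of most probes downward was not covered. Each mean ± SD covers 3 geometric pair means. The number of arrays limits the precision.

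Probes were named from the platform annotation, and 690 of the 692 with a single gene matched a RefSeq table of assembly TAIR10.1, used for names only. The table's symbols and synonyms, without gene descriptions, were used to match the 5 lists. The genes, the lists and the alternatives were chosen with earlier results of these data known. Genes were named by this rule: the 4 members, every tested gene of a list with 8 or fewer, and for each member the 3 genes most correlated with it. The other 9 genes, picked by name as regulators, were added after the annotation had been seen. Alternatives were 12 single arrays, a replicate block, 3 scalings, an offset before log2, 2 filters, a trended and robust variance, a correction for neighbouring probes, leaving out each array or close pair, an adjusted p under 0.01 and at least a 1.5-fold difference.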

Additional observations from a re-analysis of the deposited data

How the results depend on the processing

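All 4 genes stayed lower in psaf under every alternative for which their log2 differences were recorded. The 2 filters, the trended and robust variance, the stricter threshold and the minimum fold were followed for the probe count only. The filter on brightness left out the dimmest 25% of probes, FBL17 among them. The log2 differences of DME, FBL17, TCP15 and SPL were -0.69, -0.64, -0.60 and -0.42 under quantile normalisation, -0.68, -0.63, -0.60 and -0.41 under median centring, and -0.63, -0.57, -0.55 and -0.38 under cyclic loess. With the offset DME was at -0.83, TCP15 at -0.77, FBL17 at -0.68 and SPL at -0.63. Leaving out an array or a close pair gave -1.10 to -0.96 for DME, -1.06 to -0.93 for FBL17, -1.03 to -0.83 for TCP15 and -0.83 to -0.70 for SPL. The count of 1271 probes was 1997 over 12 single arrays, 707 under quantile normalisation, 758 under median centring, 762 under cyclic loess, 1915 with the neighbour correction and 579 at a threshold of 0.01. The share higher in psaf was 12.4% on the deposited scale, 40.6% under quantile normalisation, 56.6% under median centring and 46.9% under cyclic loess. Left-out arrays gave 709 to 1280 probes, with 793 without psaf arrays 3 and 4 and 709 without psaf arrays 5 and 6. Under a replicate block the count was 1354 over pair means and 2148 over 12 arrays. The log2 differences of the 4 genes cannot change under this block, because each block holds both genotypes equally. The main fit did not pair arrays across genotypes by number. Same-numbered pair means correlated in their deviations at -0.02, 0.21 and 0.21, and same-numbered single arrays at 0.02 to 0.26. The best psaf match had the same number for WT pair means 2 and 3, not 1, and for every WT array except array 2. A link between same-numbered arrays was thus not excluded, and the replicate block allows for it. Under quantile normalisation, median centring and cyclic loess, chr31 was at 0.061, 0.25 and 0.026, AGL26 at 0.11, 0.11 and 0.15, and TRM31 at 0.038, 0.033 and 0.089, while LAS came to -0.089, -0.034 and -0.067 and AGL103 to -0.13, -0.091 and -0.085. The alternatives for the fixed lists gave no value, because matching by symbol or synonym found no tested gene of their pathways beside the 4. Genes of these pathways that carry only a locus number or another name could have been missed. SAP, described above as a regulator of flower and ovule development, was tested but was on none of the lists. The cause of these changes was not tested.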

Other observations

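Inside the close pairs, TCP15 and SPL read higher on the odd-numbered array in most pairs. TCP15 read higher on the odd-numbered array in 6 of 6 pairs, with a median log2 difference of 0.18, and SPL in 5 of 6 pairs, with a median of 0.18. WT arrays 5 and 6 counted among the 5 for SPL, though nearly equal at 0.678 and 0.677. DME and FBL17 read higher on the odd-numbered array in 3 of 6 pairs each, with medians of -0.02 and 0.02. Over the 3241 probes measured on all arrays, the odd array was higher in all 6 pairs for 5.25% and in at least 5 for 551 probes, and the even array was higher in all 6 for 8.11%. The labels give no meaning to odd and even numbers. For SPL the largest gap inside a pair was 0.37 log2, beside a difference between genotypes of -0.76 on the deposited scale and -0.38 under cyclic loess. For TCP15 it was 0.22, beside -0.95 and -0.55.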
